A study of Drosophila melanogaster with 2 samples.

Results

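Transfer RNA (tRNA) genes were taken as all genes whose symbol in the Release 6 annotation of Drosophila melanogaster starts with tRNA: and that lie on chromosomes 2L, 2R, 3L, 3R, 4, X or Y. The rule gave 295 of 17807 annotated genes, and it used no measured value. They lay on the 5 large arms, with 100 on 2R, 79 on 3R, 49 on 3L, 41 on 2L and 26 on X, and none on 4 or Y. The genes were 71 to 186 bp long (median 73 bp), and 5 of them are annotated as pseudogenes. A tRNA gene was counted as having an accessible region when a region of the deposited list overlapped the gene or the 200 bp beyond either end.

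The cells were ML-DmD17-c3 (D17), which were established as a line from haltere discs of larvae, and their open chromatin had been mapped with ATAC-seq, where a transposase inserts adapters into accessible DNA. The series holds 2 libraries in 1 group, with no treatment, genotype or sex in the labels, and nothing that says whether the libraries came from separate cultures. They were represented by 1 list of 26571 regions that names no replicate, so every value is the list's own, without SD. No comparison of samples was possible, and counts are given beside the same counts over other genes or windows, with no test. All coordinates are those of the dm6 (Release 6) assembly. All 7 genes taken as markers of wing and haltere disc (vg, ap, nub, sd, Ubx, hth and tsh) had a region in the gene or within 200 bp of it, 6 of them with a fold among the highest 10% of the list. So did all 8 marker genes of hemocytes, muscle and neurons, 4 of them with such a fold. Median highest folds were 7.62 for the disc markers and 2.76, 3.48 and 4.13 for the 4 hemocyte, 2 muscle and 2 neuron markers. Among all protein-coding genes 73.5% had a region and 13.5% one with a fold among the highest 10%, so that having a region did not separate the cell types. The highest fold is taken over all regions of a gene, and long genes can hold several. Among these markers hth spans 132008 bp with 18 regions and NimC1 3612 bp with 1. The median protein-coding gene spans 2161 bp. No RNA was measured in these files.

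tRNA genes are transcribed by RNA polymerase III (Pol III) from promoter elements inside the gene, the A and B boxes. Transcription factor TFIIIC binds these boxes and places TFIIIB upstream of the start, which recruits the polymerase. In Drosophila the TBP-related factor Trf takes the place of TBP in TFIIIB. Actively transcribed tRNA genes are known from other organisms to be depleted of nucleosomes, and most tRNAs are encoded by many dispersed copies. The symbol gives the amino acid carried (the isotype), the anticodon, a family number shared by copies with the same mature sequence, and a copy number.

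About 2 in 5 tRNA genes lay in or next to accessible chromatin, and the regions there were stronger than most. A region was found within 200 bp of 113 of the 295 genes (38.3%), and 102 genes (34.6%) were overlapped themselves. All windows of 473 bp, the length of a median tRNA gene with its 200 bp on each side, held a region at 22.0% of positions on the same arms. These windows cover whole arms, including sequence where reads cannot be mapped, which lowers every window share given here and below. The share with a region was 65.5% among all genes that are not tRNA genes and 73.5% among protein-coding genes, which are far longer (median 2161 bp). Among other short genes it was 27.5% of 269 snoRNA genes and 26.2% of 260 miRNA genes. It was 46.9% of 32 snRNA genes. The tRNA gene share thus stood above those of snoRNA genes, miRNA genes and equal windows, and below that of the few snRNA genes. None of the 5 pseudogenes had a region.

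The 113 genes rested on 73 distinct regions, of which 44 served 1 gene, 20 served a pair and 9 served 3 or more, up to 5. Genes that share a region are not separate observations. Fold enrichment, the authors' ratio of read pileup at the summit to local background, had a median of 2.87 over these 73 regions and 1.90 over all 26571. Taken gene by gene the median was 3.10, with a range of 1.50 to 8.43 and quartiles of 2.16 and 4.12. Of the 73 regions, 33 (45.2%) were strong, meaning among the 10% of all regions with the highest fold (at least 2.999). A strong region lay at 60 tRNA genes (20.3%), against 2.77% of equal windows, 5.20% of snoRNA genes, 3.46% of miRNA genes and 25% of snRNA genes. It lay at 13.5% of protein-coding genes and 12.4% of all genes that are not tRNA genes, which are far longer and can hold several regions.

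The higher fold came with a higher pileup, at a similar median background. Summit pileups recovered for the 73 regions ranged from 76 to 499 reads, their median being 147, against 101 reads in the other regions. The median background was 47.6 and 48.2 reads. The lowest background in the list, 44.4 reads, was shared by 24 of the 73 regions (32.9%) and by 39.8% of all regions. A lower background at tRNA genes could therefore hardly have shown. Widths were close, with a median of 540 bp (198 to 2237 bp) against 497 bp. A fold does not tell whether a site was open in more cells or was cut more often in each.

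Coverage was highest at the gene and stayed above the arm mean for over 1000 bp. The middle of 25.8% of tRNA genes lay inside a region, against 13% of all positions on the 5 arms, which include sequence where reads cannot be mapped. At 300 bp from the middle 19.2% of positions were covered, at 1000 bp 20.3% and at 2500 bp 12.5%. At the gene middle the share was 37.5% for snRNA genes, 16.2% for miRNA genes and 12.3% for snoRNA genes. The snoRNA profile rose away from the gene, to 29.0% at 1500 bp, while the tRNA profile was highest at the gene itself.

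**Figure D1:**
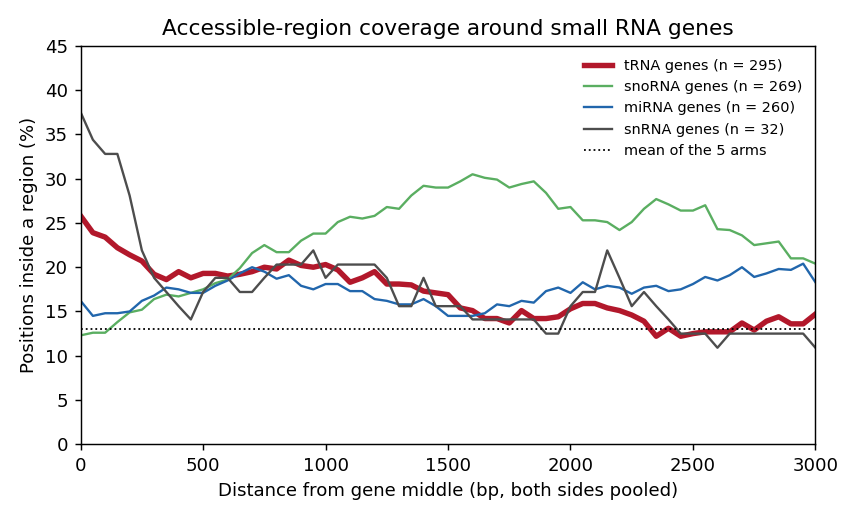
Share of positions inside an accessible region (%) against distance from the gene middle (bp, both sides pooled) for tRNA, snoRNA, miRNA and snRNA genes, with the mean of the 5 arms as a dotted line. The tRNA line starts at 25.8%, stays near 20% up to 1000 bp and falls to 12.5% at 2500 bp, while the snoRNA line starts at 12.3% and rises.

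Summits lay beside the tRNA gene more often than within it. Of the 73 regions, 56 (76.7%) had their summit within 200 bp of the middle of the nearest tRNA gene, with a median distance of 99.5 bp. For comparison, 15 of 64 regions at snoRNA genes (23.4%), 22 of 65 at miRNA genes (33.8%) and 11 of 13 at snRNA genes (84.6%) had a summit so close. Distances of 25 to 125 bp held 48 of the 73 summits, and no summit was within 25 bp of the middle. The nearest, at tRNA:Gly-TCC-1-1 on 3R, was 29.5 bp away. A summit fell inside a tRNA gene in 4 regions, at tRNA:Leu-AAG-1-2, tRNA:Gly-GCC-1-12, tRNA:Gly-TCC-1-1 and tRNA:Leu-CAA-2-3. This was 5.48% of regions, against 4.69% at snoRNA genes, 3.08% at miRNA genes and 23.1% at snRNA genes. The 4 tRNA genes were named after their values were seen. The annotation used gives no strand, so upstream and downstream sides could not be told apart. Reads from genes with identical copies elsewhere cannot be placed uniquely, and the part of this in the summit positions was not tested.

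**Figure D2:**
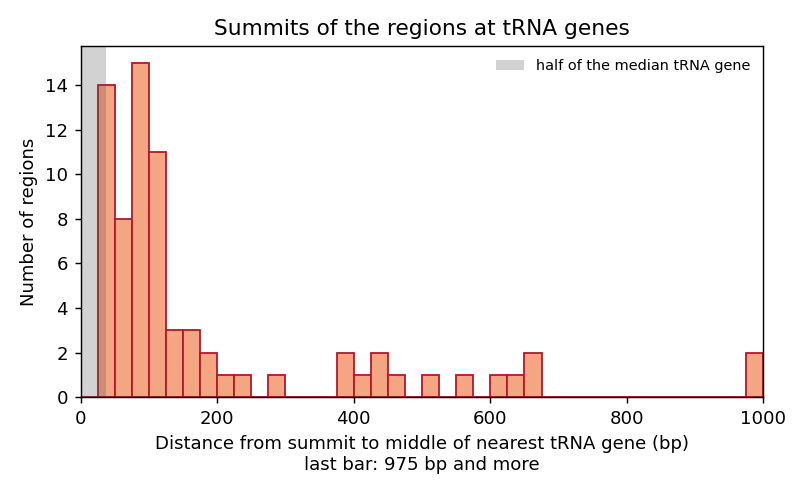
Number of regions by the distance from the summit to the middle of the nearest tRNA gene (bp), with the grey band reaching from the middle to the end of a gene of median length. 48 of 73 summits lie at 25 to 125 bp and none within 25 bp.

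Region borders often fell within the tRNA gene. Of the 102 overlapped genes, 45 lay wholly inside a region and 57 (55.9%) held a border, so that only part of the gene was covered. A border inside the gene was found in 6 of 42 overlapped miRNA genes (14.3%), 19 of 43 snoRNA genes (44.2%) and 8 of 14 snRNA genes (57.1%). tRNA genes are the shortest of the 4 classes, with medians of 73, 92, 134 and 154 bp for tRNA, miRNA, snoRNA and snRNA genes. Counted by region, 49 of 73 (67.1%) began or ended inside a tRNA gene, and 8 did both. Reads from gene bodies with identical copies elsewhere cannot be placed uniquely, and their treatment by the authors is not given in the sources used. A border was found in 7 of 15 overlapped genes whose family has 1 copy (46.7%) and in 11 of 25 (44.0%) of families of 2 to 4. It was found in 18 of 30 (60%) of families of 5 to 8 and in 21 of 32 (65.6%) of families of 9 to 13. The part of read placement in the borders was not tested.

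The number of copies did not order the share of genes with a region. It was 34.9% of 43 single-copy genes, 41.3% of 63 genes in families of 2 to 4, 38.7% of 93 in families of 5 to 8 and 37.5% of 96 in families of 9 to 13. Copies with the same mature sequence often differed. Of the 46 families with more than 1 copy, 33 had copies with and copies without a region, 11 had no copy with one and 2 had one at every copy. These 2 were Ala-CGC-1 and Thr-CGT-1, each with 3 genes. The largest families were Lys-CTT-1, with a region at 4 of 13 genes, and Gly-GCC-1, with 3 of 13. In Asp-GTC-1 it was 5 of 12, in Ala-AGC-2 6 of 11 and in Ile-AAT-1 6 of 9.

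All 22 isotype names had at least 1 gene with a region. Among isotypes with 6 or more genes the share ran from 8.33% for glutamine (1 of 12) to 71.4% for cysteine (5 of 7). Alanine followed with 11 of 17 (64.7%), on 7 distinct regions and 3 arms. Shares of 50% were reached by leucine (11 of 22), threonine (9 of 18), isoleucine (6 of 12), phenylalanine (4 of 8), tryptophan (4 of 8) and histidine (3 of 6). Proline had 8 of 17, aspartate 6 of 14, serine 8 of 20 and arginine 9 of 26. Methionine had 2 of 6, the initiator methionine 2 of 6, asparagine 3 of 10 and tyrosine 3 of 10. At the low end were glutamate (6 of 21), lysine (5 of 19), glycine (4 of 20), valine (2 of 15) and glutamine. The cysteine, histidine, valine and initiator methionine counts rested on 3, 2, 1 and 1 regions, so they describe loci more than isotypes. The glutamine share depended on the window, with 0 of 12 genes at 100 bp, 3 at 500 bp and 7 (58.3%) at 1000 bp, where it was above lysine (42.1%) and asparagine (30%).

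**Figure D3:**
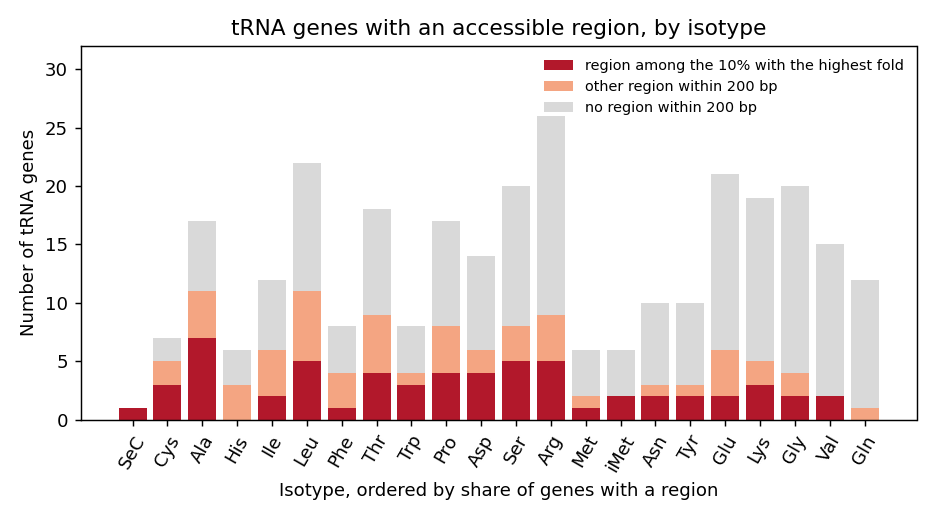
Number of tRNA genes of each isotype with a strong region (fold among the highest 10%), another region, or none within 200 bp. Alanine has 11 of 17 genes with a region and glutamine 1 of 12.

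By anticodon, 41 of 45 isotype and anticodon pairs had a gene with a region. The 4 without one were Val-CAC (7 genes at 6 loci), Gln-TTG (4 genes), Val-TAC (2 genes) and Ile-TAT (2 genes). Both valine genes with a region, tRNA:Val-AAC-2-1 and tRNA:Val-AAC-2-2, shared the region inside hts. The gene of selenocysteine tRNA, tRNA:SeC-TCA-1-1 on 2R, which reads a stop codon in selenoprotein mRNAs, is a single copy. It was overlapped by a region at 2R 11356062 to 11357800 with a fold of 3.15 (exact Poisson 95% interval 2.66 to 3.71). The summit lay 653 bp from the gene middle, and the end of another gene lay 27 bp from the tRNA gene, so this region was not centred on it.

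The highest fold at a tRNA gene belonged to alanine. The genes tRNA:Ala-TGC-1-1 and tRNA:Ala-TGC-2-1 shared a region at 2R 17391823 to 17392767. Its fold was 8.43 (interval 7.71 to 9.20), from a pileup of 499 reads. It lies between genes, and its summit was 85.5 bp from the middle of tRNA:Ala-TGC-2-1. Next was the single gene tRNA:Leu-CAA-2-3, with a region at 3R 23601363 to 23601723, a fold of 6.59 (5.87 to 7.37) and the summit inside the gene. The aspartate gene tRNA:Asp-GTC-1-6, inside Sema1a, a semaphorin gene, had a fold of 6.58 (5.89 to 7.34) at 2L 8619503 to 8620064. Its nearest gene end was 25539 bp away, so no annotated gene end accompanied the region. The intervals of these last 2 folds overlap almost fully, and both lie below that of the alanine region. They cover counting error only, the alanine region was named because its fold was highest, and no difference between loci was tested.

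Also among the 12 highest were tRNA:Asp-GTC-1-4 and tRNA:Asp-GTC-1-5, which shared a region at 2L 8541564 to 8542174 with a fold of 6.29 (5.66 to 6.96). The annotated end of Sema1a at 2L 8542147 lay inside this region. The initiator methionine genes tRNA:iMet-CAT-1-4 and tRNA:iMet-CAT-1-5, whose tRNA starts translation, shared one inside ome at 3L 14673940 to 14675356 with 6.18 (5.64 to 6.77), and the end of another gene lay 123 bp from the second of them. tRNA:Leu-AAG-1-3 had 5.58 (4.91 to 6.31) at 2R 17144915 to 17146083, with the end of another gene 236 bp from it. The remaining 3 were in ATP8A. Of the other 4 initiator genes, tRNA:iMet-CAT-2-1 had its nearest region 453 bp away and tRNA:iMet-CAT-1-3 949 bp away. tRNA:iMet-CAT-1-1 and tRNA:iMet-CAT-1-2 were 24966 and 25251 bp from any region. Copies 1, 2, 3, 4 and 5 of family iMet-CAT-1 thus ranged from a strong region to none over a long stretch.

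**Figure D4:**
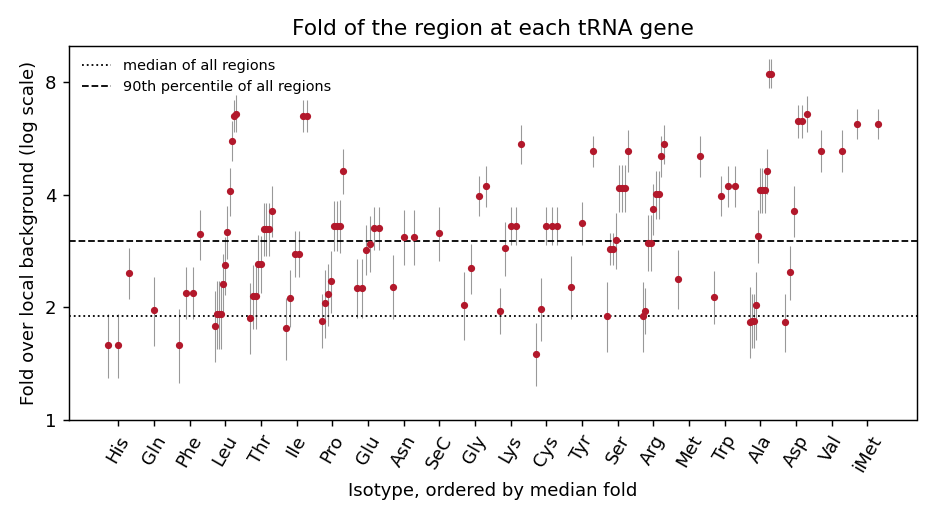
Fold over local background (log scale) of the region at each of the 113 tRNA genes, by isotype, with exact Poisson 95% intervals as bars. The dotted line is the median of all regions (1.90) and the dashed line their 90th percentile (2.999), and the alanine pair at 8.43 is highest.

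tRNA genes at most 2000 bp apart were joined into clusters. This gave 70 clusters with 204 genes, the largest with 8, and 91 single genes. A region lay at 87 clustered genes (42.6%) and 26 single genes (28.6%), with median folds of 3.25 and 2.60. Since neighbours can share a region, the clustered share counts some regions more than once. Among the 70 clusters, 19 had a region at every gene, 22 at some and 29 at none. Of the 32 clusters with 3 or more genes, the counts were 6, 15 and 11. In 47 clusters all genes had 1 isotype.

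The 3 clusters with the most genes differed. The largest, 8 genes between 2R 19725620 and 19729353, holds the initiator genes tRNA:iMet-CAT-1-1 and tRNA:iMet-CAT-1-2 and 6 glutamate genes, 1 of them a pseudogene, and lay 24966 to 28628 bp from the nearest region. A tandem array of 5S rRNA genes begins 209 bp past its last gene, and the part of read placement in this stretch was not tested. The cluster of 7 inside ATP8A, a phospholipid flippase gene, spans 2513 bp and had a region at 6 genes. Its strongest region was at 2R 13430721 to 13431307, where 404 reads piled up and the fold reached 6.50 (interval 5.88 to 7.16). It began inside tRNA:Leu-CAA-2-1, held tRNA:Ile-AAT-1-4 and ended inside tRNA:Ile-AAT-1-5. The next region, fold 2.78 (2.40 to 3.20), ended inside tRNA:Ile-AAT-1-7, and one of 1.76 (1.45 to 2.11) ended inside tRNA:Ile-AAT-1-3. The intervals of these folds, which cover counting error only, do not overlap, and no difference was tested. The isoleucine copies have the same mature sequence, but the summit of the strongest region lay nearest a leucine gene. It was 109 bp from the middle of tRNA:Leu-CAA-2-1. The 7 arginine and serine genes between X 14014814 and 14017284 had 1 region of fold 1.90 (1.52 to 2.34), which touched tRNA:Arg-TCG-2-1 and tRNA:Ser-CGA-1-1. The other 5 were 377 to 2144 bp from it.

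**Figure D5:**
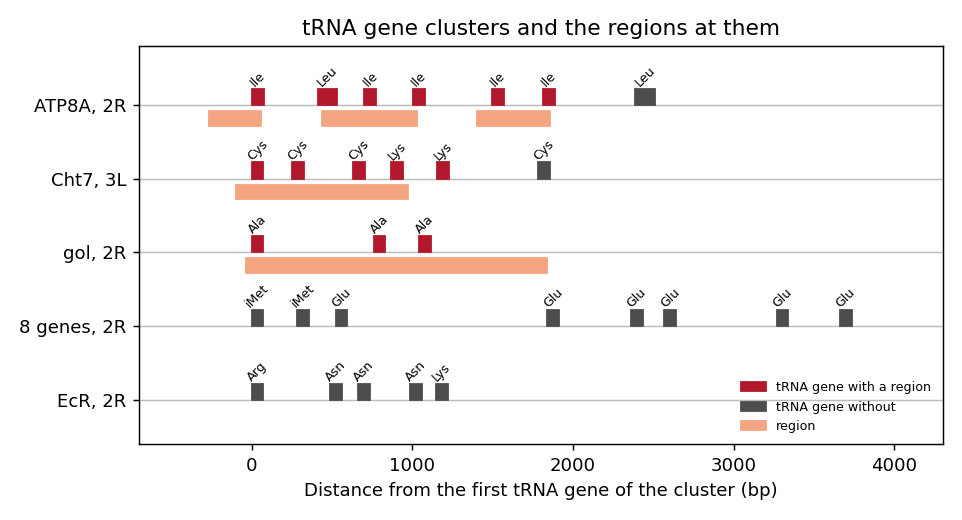
Positions (bp from the first gene) of tRNA genes with a region (red) and without (dark grey) in 5 clusters, with the regions at them below the line (orange). The ATP8A cluster has 3 regions over 6 of 7 genes, and the 8-gene cluster and an EcR cluster of 5 genes have none.

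Of the 295 tRNA genes, 138 lay inside another gene, and this did not separate those with a region from those without. A region was found at 54 of 138 genes inside another gene (39.1%) and at 59 of 157 outside (37.6%), with median folds of 3.17 and 3.10. In 137 of the 138 the host was protein-coding. Windows of the same length did differ by position, with a region in 27.0% of windows centred inside protein-coding genes and 12% of those outside. The ratio to these windows was therefore larger outside genes, but windows there include sequence where reads cannot be mapped. The part of this in the ratio was not tested. Exons and introns are not given in the annotation used. An end of another gene lay within 500 bp of 85 tRNA genes, 39 of which had a region (45.9%). Over 500 bp from such ends it was 74 of 210 (35.2%), with a median fold of 3.09. Split further, those were 45 of 115 inside genes (39.1%) and 29 of 95 outside (30.5%). A region at a tRNA gene close to another gene's end may belong to either.

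Host genes with the most tRNA genes differed as well. EcR, the ecdysone receptor gene, holds 13, of which 2 had a region. These, tRNA:Arg-ACG-1-1 and tRNA:Lys-CTT-1-1, shared one of fold 1.96 (interval 1.69 to 2.26) at 2R 6142418 to 6142726. The other 11 were 545 to 3305 bp from the nearest region, although EcR held 24 regions in its 81215 bp. Past the end of EcR, a pair of the same families, tRNA:Lys-CTT-1-5 and tRNA:Arg-ACG-1-4, shared a region of fold 5.46 (4.84 to 6.15) at 2R 6171470 to 6171752. This pair was picked after its values were seen. Ptp61F, a protein tyrosine phosphatase gene, holds 9 glutamate genes, all copies of Glu-CTC-3, with a region at 4. Folds were 3.25 (2.84 to 3.71) at tRNA:Glu-CTC-3-1 and tRNA:Glu-CTC-3-2 and 2.25 (1.87 to 2.69) at tRNA:Glu-CTC-3-8 and tRNA:Glu-CTC-3-9. The summit of the first lay 1321.5 bp from the nearest tRNA gene, the farthest of all 73 regions.

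ATP8A holds 8, with a region at 7, and 4 of its 11 regions were at tRNA genes. Cht7, a chitinase gene, holds 6, with 1 region at 5 of them, 3 cysteine and 2 lysine genes. It lay at 3L 3095639 to 3096707, with a fold of 3.30 (2.93 to 3.70), a pileup of 290 reads and a background of 87.2 reads. That background was above the median of 47.6 reads for the 73 regions. The genes mrj, mim and CheB42c each hold 4 tRNA genes and none had a region, with mim and CheB42c holding the same 4. Where all tRNA genes of a host had a region, gol (3 alanine genes, fold 4.12, interval 3.58 to 4.72) and hts (1 serine and 2 valine genes, fold 5.25, 4.60 to 5.96) are examples chosen after their values were seen. gol encodes a RING finger protein and hts the fly adducin. In hts the end of another gene lay 108 bp from the serine gene.

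By arm, a region lay at 46 of 100 tRNA genes on 2R (46.0%), 20 of 49 on 3L (40.8%), 15 of 41 on 2L (36.6%), 28 of 79 on 3R (35.4%) and 4 of 26 on X (15.4%). The equal windows on these arms held a region at 24.6%, 22.7%, 23.3%, 22.0% and 17.3% of positions. On X the tRNA share was close to that of the windows, and its 4 genes rested on 3 regions. On each of the other arms it was above that of the windows. A stretch of 102997 bp on X, from 14014814 to 14117810, holds 14 of the 26 genes, all for serine or arginine, with a region at 2. The other 12 X genes also had 2. The gene farthest from any region, tRNA:Ser-AGA-2-2 at 33404 bp, lay in this stretch. The copy number of X in these cells was not taken into account, and its part was not tested.

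Of the 182 genes without a region, 31 had one 201 to 500 bp away, 44 at 501 to 1000 bp, 77 at 1001 to 5000 bp and 30 farther off. A distance over 5000 bp was thus found for 10.2% of tRNA genes, against 24.6% of all positions on the 5 arms, a span that includes sequence where reads cannot be mapped. Just inside the limit of 200 bp were tRNA:Pro-AGG-1-7 (190 bp, fold 2.16) and tRNA:Lys-CTT-1-13 (184 bp, fold 3.30). Just outside were tRNA:Pro-AGG-1-5 (201 bp) and tRNA:Asp-GTC-1-12 (202 bp).

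Genes over 90 bp long, a limit that took in the Tyr-GTA, Leu-CAA and Ile-TAT genes, had a region at 5 of 16 (31.2%), against 108 of 279 shorter genes (38.7%). Tyr-GTA genes are known to carry introns that are spliced from the transcript. Among them tRNA:Tyr-GTA-1-8 had a fold of 5.23 (interval 4.74 to 5.75), tRNA:Tyr-GTA-1-9, the longest at 186 bp, 3.35 (2.93 to 3.82) and tRNA:Tyr-GTA-1-3 2.27 (1.86 to 2.74). The summit of the region at tRNA:Tyr-GTA-1-8 lay 460.5 bp from the gene middle, outside the gene. The other 7 Tyr-GTA genes had no region. The length limit was chosen after the data were seen.

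The protein genes of tRNA synthesis and use had regions at 63.6% to 100% of their members by list, against 73.5% of protein-coding genes at large. Strong regions lay at 2 of 20 aminoacyl-tRNA synthetase genes not named as mitochondrial, 2 of 15 named so and 1 of 12 Pol III subunit genes. The lists of 7 Pol III factor genes and 11 tRNA processing genes had none. Among protein-coding genes the share was 13.5%, and no difference from it was tested. Whether regions at these genes also lay at neighbouring genes was not examined, except where stated. All 20 aminoacyl-tRNA synthetase genes not named as mitochondrial, whose enzymes load tRNAs with amino acids, had a region in the gene or within 200 bp, with a median highest fold of 1.98. Of these, 2 had a strong region, HisRS (4.58, interval 4.01 to 5.22) and AspRS (3.21, 2.77 to 3.70), followed by CysRS (2.71). The region credited to HisRS lay over its annotated end at X 18515428, which is also an end of Bx, and cannot be assigned to either. All 15 synthetase genes named as mitochondrial had a region, led by ArgRS-m (4.20, 3.64 to 4.81), AspRS-m (3.45) and SerRS-m (2.22). Subunits of Pol III had one at 9 of 12 genes. Polr1D, shared with Pol I, led with 4.75 (4.31 to 5.23), then Polr3D (2.43) and Polr3B (2.13), while Polr3C, Polr3I and Polr1C had none.

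For TFIIIB, TFIIIC and Pol III regulation it was 6 of 7, none strong. Brf, a TFIIIB subunit, had 2.18 (1.78 to 2.65), Trf 2.07 (1.77 to 2.41) and CG7099, annotated as a TFIIIC subunit, 2.00 (1.72 to 2.32). Maf1, a repressor of Pol III, had no region. Genes of tRNA processing had 7 of 11, none strong, with Tsen54 (interval 1.88 to 2.76), a splicing endonuclease subunit, Trmt6 (2.25) and Trmt112 (1.98) highest. Rpp30, of RNase P, and Tsen15 and Tsen34, of the splicing endonuclease, were among the 4 without one. Median highest folds of these lists, 1.74 to 2.09, were below the 3.10 at tRNA genes and close to the 2.12 at protein-coding genes.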

How the data were processed

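ATAC-seq had been done on 2 libraries of D17 cells. Per the submitters' processing notes, which give no roles, the tools were MACS2 (2.2.6), bedtools (2.29.2), SAMtools (1.13), Bowtie2 (2.3.5.1) and Trim Galore (0.6.4), and the builds dm6 and BDGP6. The sources used here do not say whether reads were shifted, filtered on placement or pooled over the libraries. The deposited list has 10 columns and no replicate. It was assigned to D17, the only cells in the series. Its deposited fold is the ratio of summit pileup to local background, its deposited −log10 p-values belong to the summit, and its deposited score was used only to rank regions. These meanings come from the layout and values. The depth of each library is unknown.

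Pileup and background were recovered from fold and p-value, with a largest relative error of 2.11e-05. For the 95% intervals, exact Poisson limits were put on the pileup while the background was held fixed, so they cover counting error only. Genes came from the Release 6 table, without strand or exons. An overlap was at least 1 bp, and a gene took its region with the highest fold. Scripts (Python 3.11.15, numpy 2.4.6, pandas 2.3.3, SciPy 1.17.1) were tested on simulated data.

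Named genes were the 12 with the highest fold, the 3 largest clusters, initiator and selenocysteine genes, up to 5 hosts (more at a tie), 2 genes on each side of the limit, and up to 3 genes with the highest fold and up to 3 without a region per pathway list. Members, lists and alternatives were chosen with earlier results of these data known, and exact list members were set once the annotation was read. Of the planned TFIIIC names only CG7099 was used, since the annotation does not name the others so. Sequences and planned motif searches were left out, because no sequence was used here.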

Additional observations from a re-analysis of the deposited data

How the results depend on the processing

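The count of 113 tRNA genes with a region stayed within 1.5 times with no window (102), 100 bp (105), 500 bp (144), the 50% of regions with the higher score (99), without pseudogenes (113) and without X (109). It was 188 with 1000 bp, 45 with the whole gene inside the region, 73 with the summit inside the window and 60 with the 10% of regions of highest fold. It was 74 over 500 bp from other gene ends, out of 210 genes, and 67 when each of 161 clusters or single genes counted once. By construction, a wider window could only raise the count or keep it, and every other setting could only lower it or keep it. No pseudogene had a region and X held 4 of the 113 genes, so leaving them out had to give 113 and 109. The cause of the size of the other changes was not tested. The median fold stayed at 2.87 to 3.25, the number of clusters at 69 to 71, and the shares of clustered and single genes and of genes inside and outside others within their 95% binomial intervals. Of the 27 shares of single isotypes and arms, 19 moved outside their 95% binomial interval with the whole gene inside the region, 12 with the 10% of highest fold, 10 with 1000 bp and 6 with the summit inside the window. With 0, 100 or 500 bp or the higher score 1 moved each. All these intervals treat genes as independent, which genes sharing a region are not, and they are wide where an isotype has few genes. Histidine, from 50% to 16.7% with the higher score, and phenylalanine, from 50% to 25% with 0 bp, stayed inside theirs. Glutamine (8.33%) went to 0% with 0 or 100 bp and to 58.3% with 1000 bp, and X (15.4%) to 26.9% with 1000 bp and 0% with the whole gene inside. The order of isotypes therefore depends on these settings. Leaving out pseudogenes or X, counting clusters once, and the fold and host splits over 500 bp from gene ends were chosen after seeing the data. No paired analysis was possible because there is 1 group and 1 list, and no library could be left out. With no replicate values, no difference between isotypes, arms or loci was tested, and the unknown depth of each library limits what weak regions could be found.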

Other observations

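Genes of other short RNAs, most but not all known to be transcribed by Pol III, were looked up in the same way. Of the U6 snRNA genes, which serve splicing, snRNA:U6:96Aa and snRNA:U6:96Ab shared a region at 3R 24554891 to 24556596 with a fold of 3.62 (exact Poisson 95% interval 3.09 to 4.21), and snRNA:U6:96Ac had none. The same region overlapped tRNA:Asp-GTC-1-11 and is 1 of the 73 regions at tRNA genes, and of the 33 strong ones, although its summit lay 650.5 bp from the middle of that gene. snRNA:7SKa, whose RNA holds the elongation factor P-TEFb inactive, had a fold of 10.6 (9.87 to 11.5) at 3R 7474583 to 7475142, above every tRNA gene, and snRNA:7SKb had no region. The gene tRNA:Val-CAC-2-4 lay 761 bp from this region and so counted as having none. RNaseMRP:RNA had 4.20 (3.70 to 4.76) and RNaseP:RNA had none.

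Both genes of the 7SL RNA, the RNA of the signal recognition particle, lay among the 4 Lys-TTT genes between 3R 6819894 and 6823035, and neither they nor those tRNA genes had a region. None of the 96 genes of the 5S rRNA, a tandem array of near-identical copies, had one either. Reads from such an array cannot be placed uniquely, and the part of this in the count of 0 was not tested.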
